A study of Mus musculus with 8 samples.

Results

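The transcripts of 34 enzymes and transporters of glucose metabolism were examined in regulatory T cells (Tregs) of mice with a history of hypobaric hypoxia. The set was taken as a list of gene symbols and covers glucose uptake, glycolysis, lactate formation and export, the entry of pyruvate into the tricarboxylic acid (TCA) cycle, the cycle itself and the pentose phosphate pathway. All 34 were found among the 56980 genes of the deposited table, and all 34 were among the 21991 genes with enough counts to be tested. The study asked what high-altitude de-acclimatization (HADA) leaves behind in immune cells, and its RNA-seq compared 4 HADA with 4 control libraries. Mice were male C57BL/6j, 8 weeks old when bought. For HADA, the air in a chamber was thinned to match 6000 m for 28 days and the mice were then brought back to normoxia, while control mice stayed in normoxia. Tregs of both groups were sorted from peripheral blood by flow cytometry, and cDNA was made by a method meant for very little RNA. The study defined Tregs as CD4+CD25+ for its co-culture with CD8+ T cells, and did not restate the markers for RNA-seq. The day after return on which these cells were sorted is not given in the sources used here. Nothing in the labels says that each library came from a separate animal, so p-values measure only the spread between these libraries, which may be technical.

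Glycolysis splits glucose into pyruvate in the cytosol. Pyruvate is then reduced to lactate and exported, or enters mitochondria, where the TCA cycle oxidizes it. The pentose phosphate pathway branches off early and makes NADPH and ribose. Hypoxia is known to raise many glycolytic genes through hypoxia-inducible factors, which bind DNA at the letters ACGTG or GCGTG, and Tregs are known to rely on mitochondrial oxidation more than effector T cells do.

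The libraries stood apart from each other in depth and in background. Total counts were 1477431, 14452433, 22584062 and 21587245 in control replicates 1 to 4, and 28240337, 22929193, 25230994 and 26590026 in HADA replicates 1 to 4. Counts had been made over whole gene spans, introns included. As a measure of reads spread over the genome, 1256 olfactory and vomeronasal receptor genes, which Tregs are not known to use, held 0.0537, 0.747, 0.367 and 0.163 CPM (counts scaled to the total of the library) per kilobase of span, before normalization, in control replicates 1 to 4. In HADA replicates 1 to 4 they held 0.192, 0.196, 0.117 and 0.0762. Control replicate 2 thus had the highest background of the 8 libraries, and control replicate 1 the lowest background and by far the fewest counts.

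Against that background, most members were well measured in some libraries and not at all in others. Each member was compared with the receptor background of the same library over its uncovered span, with a limit of 3 times background that was chosen after the values were seen. In control replicates 1 to 4, the members at or above the limit were 32, 0, 8 and 23 of 34. In HADA replicates 1 to 4 they were 17, 21, 26 and 31 of 34. In control replicate 2 the median member was at 0.457 times background, so the counts of the pathway there cannot be told apart from reads spread over spans. The 34 members together took 0.336, 0.0399, 0.119 and 0.278 percent of all counts in control replicates 1 to 4, and 0.216, 0.192, 0.270 and 0.341 percent in HADA replicates 1 to 4. The 2 groups overlapped in this share, with control replicates 2 and 3 below every other library. The part that this background has in the differences below was not tested beyond the alternatives with this background subtracted.

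**Figure D1:**
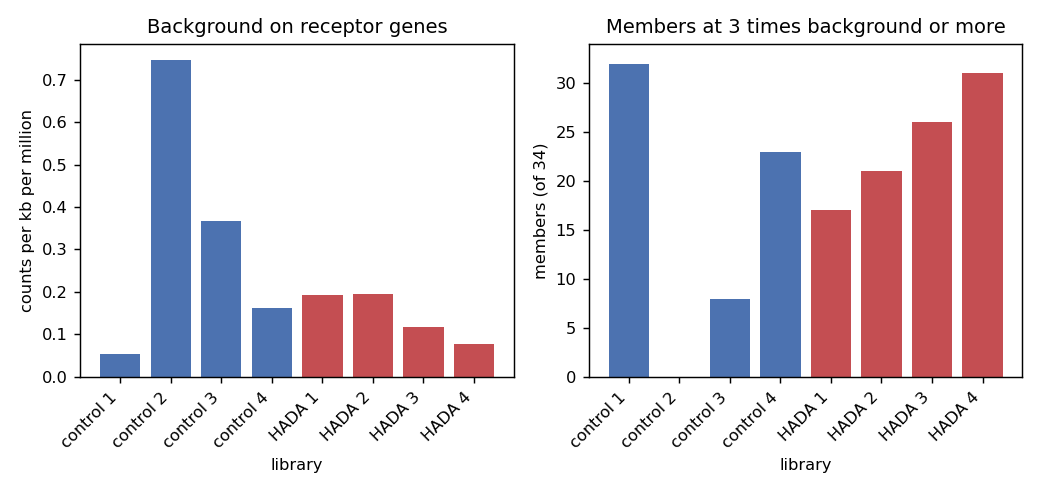
Left, CPM per kilobase of span, before normalization, on receptor genes in each library. Right, the number of the 34 members at 3 times that background or more in the same library (blue, control; red, HADA). Control replicate 2 has the highest background, 0.747, and 0 members at that level, while control replicate 1 has 32.

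No member of the pathway passed the thresholds between HADA and control. By the quasi-likelihood test of edgeR, with thresholds on the adjusted p (Benjamini-Hochberg, under 0.05) and on the absolute log2 fold change (over 1), 0 of 34 members were higher in HADA and 0 were lower. Of all 21991 genes, 1.65% were higher (363 genes) and 0.477% lower (105 genes). At an unadjusted p under 0.05, 3 members were higher (Gapdh, Mdh1 and Taldo1) and 0 lower, against 12% and 14.7% of all genes. DESeq2 called the same 3 members higher and 0 lower, of 31 with an adjusted p, while it called 11.6% of genes with an adjusted p higher and 20.1% lower. By limma-trend on log2(CPM + 1), 0 members were called in either direction, against 3.7% of all genes higher and 0.346% lower. In these comparisons each share of members called or under that p lay below the share of all genes. With DESeq2 and without control replicate 1 it did not, as 12 of 31 members and 6281 of 22674 genes were called higher, a larger share of the members. Fewer cells of a type and less RNA per cell cannot be told apart in these bulk libraries.

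The counts of calls rested on single libraries. Without control replicate 1, edgeR called 3716 genes higher and 4732 lower, which was 15.5% and 19.7% of the genes then tested. In that fit 4 of 34 members were higher, namely Gapdh, Slc16a3, Pdha1 and Ogdh, and 0 were lower. Without control replicates 2, 3 or 4, the genes called higher were 118, 28 and 59 and those called lower 7, 1 and 2. Without HADA replicates 1 to 4, they were 124, 211, 209 and 249 higher and 9, 20, 13 and 25 lower. No member was called in any of these 7 fits.

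The members as a list had a median log2 fold change of 0.87, and 27 of 34 were above 0. The median of all genes tested was 0.01, and 50.2% of them were above 0. Standard errors were wide, between 0.66 and 1.58 for single members, with a median of 1.11. The members' median was 1.58 without control replicate 1, 0.52 without control replicate 2 and 0.50 without HADA replicate 4. It was 0.00 beside 0.03 for all genes where each library had to hold at least 10 counts, and 0.02 beside 0.01 where all libraries were drawn down to the smallest total, with 28 members tested in each. The 6 members without 10 counts in every library (Slc2a1, Pfkm, Aldoc, Tpi1, Gapdh and Slc16a3) had log2 fold changes of 1.13 to 2.15 in the fit of all genes. Their counts under 10 were all in control libraries, for Slc2a1, Pfkm and Gapdh in control replicate 1 alone. The parts of depth and of the difference between groups in this filter were not tested. In the fit of all genes the other 28 members had a median log2 fold change of 0.64, and all genes with 10 counts in every library one of 0.67. After the background per span was subtracted it was 0.46 over 29 members, below the 0.998 of all genes tested. Without the subtraction, the same 29 members had 0.83 and the same genes 1.19, so the members were already below on this set of genes. The position of the list above all genes thus differed with the genes it was compared with.

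**Figure D2:**
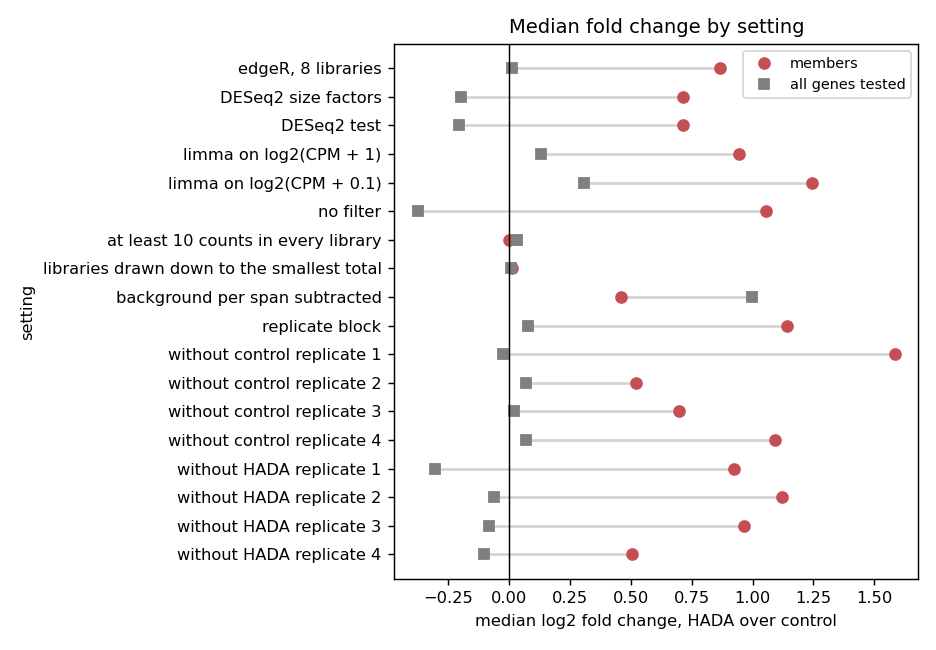
Median log2 fold change, HADA over control, of the members (red circles) and of all genes tested (grey squares) under the settings drawn. The members lie above all genes in most settings drawn, together with them at 0.00 and 0.02 where low counts are removed or depth is made equal, and below them (0.46 against 0.998) where the background was subtracted, with fewer genes tested. Not drawn are DESeq2 without control replicate 1 (members 1.71, all genes 0.13) and subtraction of the background without control replicate 1 (1.12, 2.10). Subtraction without control replicate 2 (0.14, 0.81) and on span free of other spans (0.41, 1.002) is not drawn either.

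In the plot of all members by library, the columns differ more than the groups do. Among the 4 control libraries, replicate 1 was the highest for 18 members and replicate 4 for 12, whereas replicate 2 was the lowest for 18 and replicate 3 for 12. Among the HADA libraries, replicate 4 was the highest for 21 members. Values here and below are CPM after TMM normalization. Summed over the 34 members they were 3082, 180.4, 939 and 3477 CPM in control replicates 1 to 4 and 2402, 1847, 4019 and 5451 CPM in HADA replicates 1 to 4. Control replicates 1 and 4 thus lay within the range of the HADA libraries. Not overlapping at all, with the 4 HADA libraries above the 4 control libraries, were 2 of 34 members, Gapdh and Taldo1, and 0 lay below. Of all genes tested, 9.13% lay wholly above and 5.7% wholly below. Without control replicate 1, the members above were 6 (Tpi1, Gapdh, Slc16a3, Ogdh, Mdh1 and Taldo1) and those below 0, against 18.4% and 26.6% of all genes. Without HADA replicate 2 or 3 the members above were 4, against 12.1% and 10.98% of all genes. They were 3 without control replicate 2, HADA replicate 1 or HADA replicate 4, against 11.3%, 11.2% and 10.8%. Only without control replicate 2 did a member lie below, and it was 1 of 34, against 6.07% of all genes.

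**Figure D3:**
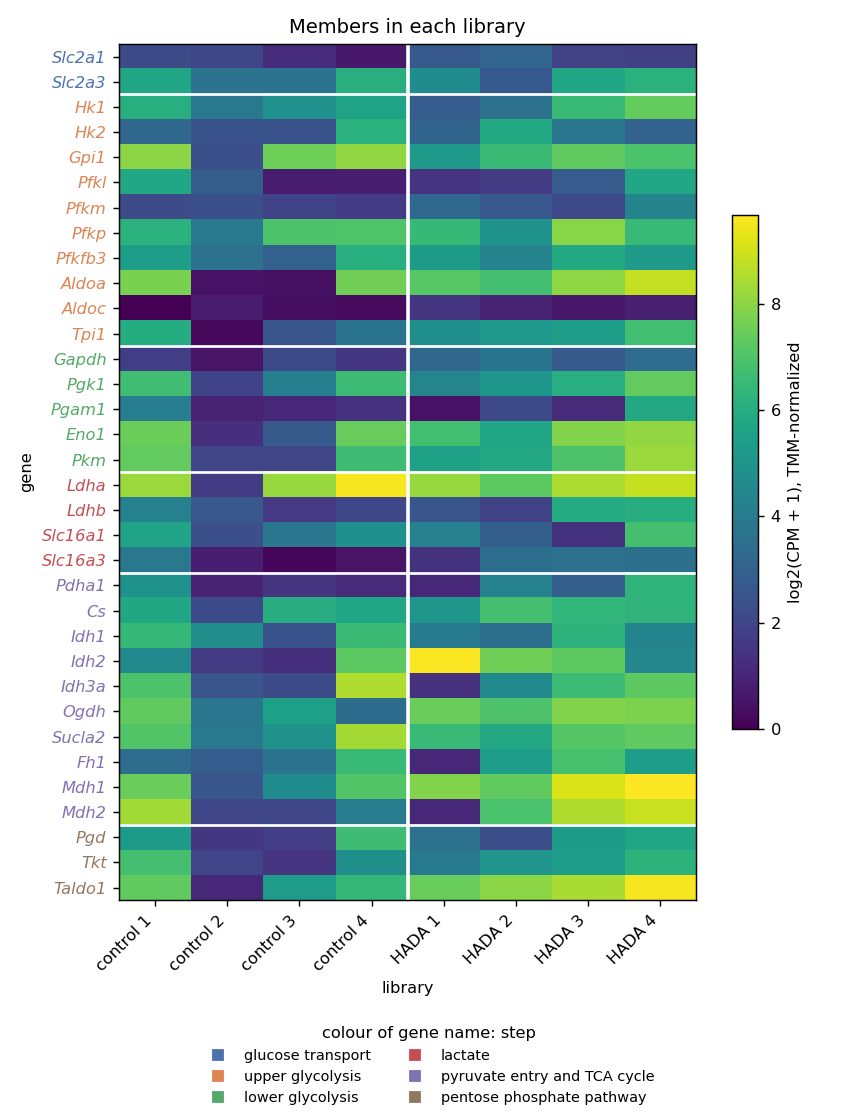
Level of each member, as log2(CPM + 1), in each library, ordered by pathway step. Control replicates 2 and 3 are dark over most genes, while control replicates 1 and 4 resemble the HADA libraries, in which Ldha, Mdh1 and Taldo1 are bright.

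Levels of different members were compared per kilobase of canonical transcript, as the mean over the 8 libraries. In that mean Ldha stood at 204 CPM per kilobase, followed by Taldo1 with 177, Aldoa with 111, Mdh2 with 107, Mdh1 with 104 and Idh2 with 94.4. The order differed between libraries, and Ldha was first only in control replicates 3 and 4, at 183 and 483 CPM per kilobase. Taldo1 was first in HADA replicates 2, 3 and 4, at 202, 272 and 584 CPM per kilobase, Idh2 in HADA replicate 1 at 447, Mdh2 in control replicate 1 at 213 and Idh1 in control replicate 2 at 7.92. At the other end of the mean were Gapdh with 3.92, Pfkl with 3.82, Hk2 with 2.81, Pfkm with 1.55, Slc16a3 with 1.32, Slc2a1 with 0.773 and Aldoc with 0.236. Of the 999 coding bases of Gapdh, 100% also lie in copies of at least 95% identity, at 77 other loci of GRCm39, and how the authors' counting treated reads with several alignments is not stated. Such copies covered over 50% of the coding bases of 9 members, namely Gpi1, Gapdh, Pgk1, Pgam1, Eno1, Pkm, Ldha, Ldhb and Taldo1, and the effect on their counts was not tested. Tpi1 had 41.5%, and 24 members had none.

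Glucose enters the cell through transporters. Slc2a3 encodes GLUT3, the high-affinity glucose transporter of lymphocytes and neurons. It was at 51.6, 11.8, 11.7 and 65.7 CPM in control replicates 1 to 4 and at 25.1, 5.36, 51.5 and 71.5 CPM in HADA replicates 1 to 4. The 2 groups spanned nearly the same range, and the lowest library was HADA replicate 2. Its log2 fold change was 0.13 with a standard error of 0.96, and the sign turned with scaling (-0.06 with DESeq2 size factors). Slc2a1, which encodes the ubiquitous transporter GLUT1, held 3.73, 3.29, 1.33 and 0.579 CPM in the controls and 5.56, 7.83, 2.66 and 2.53 CPM in HADA. The groups overlapped, and in the 7 libraries other than control replicate 1 these counts were between 0.12 and 1.71 times background, so that Slc2a1 was hardly measured.

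Upper glycolysis traps glucose as a phosphate and splits it. Gpi1, the isomerase that turns glucose 6-phosphate into fructose 6-phosphate, was at 254, 4.20, 185 and 274 CPM in the controls. In HADA it was at 36.3, 95.8, 158 and 120.4 CPM. All 4 HADA libraries lay below control replicates 1, 3 and 4 and above control replicate 2, with a log2 fold change of -0.81 (standard error 0.99). Over all alternatives it ran from -1.76 to 0.0654, above 0 only by limma. Aldoa, the aldolase that cleaves fructose 1,6-bisphosphate, gave 208, 0.376, 0.349 and 187 CPM in the controls against 140.4, 108, 260.5 and 443 CPM in HADA. It was thus absent above background in control replicates 2 and 3 and at the level of HADA in the other control libraries, and its log2 fold change was 1.27 with a standard error of 1.49 and a range of 0.57 to 4.56 over all alternatives. Other gene spans cover 55.9% of the Aldoa span. The other 8 members of this step were the hexokinases Hk1 and Hk2, the phosphofructokinases Pfkl, Pfkm and Pfkp, the regulator Pfkfb3, the aldolase Aldoc and the isomerase Tpi1. Their log2 fold changes ran from -0.06 to 1.48, 7 of 8 above 0, and their smallest unadjusted p in edgeR was 0.0601.

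In lower glycolysis, where ATP and NADH are made, Gapdh was among the 2 members without overlap. Gapdh (ENSMUSG00000057666, GRCm39 chr6:125138678-125143430, minus strand) encodes the dehydrogenase that makes the NADH of glycolysis. It was at 2.49, 0.438, 3.49 and 1.85 CPM in control replicates 1 to 4, the first of these from 4 counts. In HADA replicates 1 to 4 it was at 8.05, 12.6, 5.73 and 9.86 CPM. Each HADA library lay above each control library in CPM, and the smallest gap was between HADA replicate 3 and control replicate 3. The control values were 10.8, 0.277, 2.58 and 1.94 times background and the HADA values 8.04, 14.3, 7.01 and 17.3 times. Control replicates 2 to 4 were thus under the limit of 3 times background. On that scale control replicate 1 lay above HADA replicates 1 and 3, so the size of this fold rests partly on a floor. The log2 fold change was 2.15 with a standard error of 0.77 and an adjusted p of 0.125 by edgeR. DESeq2 gave an adjusted p of 0.0190, and edgeR 0.0416 without control replicate 1. Over the 19 alternatives that tested it, its adjusted p ran from 0.000822 to 0.99, and it was not tested with 10 counts in every library or at equal depth.

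The most abundant members of lower glycolysis showed no such gap. Eno1, the enolase of most tissues, was at 180.2, 1.53, 5.66 and 169.7 CPM in the controls and at 107, 51.9, 231 and 272 CPM in HADA. Pkm, the pyruvate kinase of lymphocytes, was at 162, 3.07, 3.04 and 100.3 CPM in the controls and at 45.7, 56.0, 124 and 299 CPM in HADA. In both genes control replicates 2 and 3 were below every HADA library and control replicates 1 and 4 lay among them. Log2 fold changes were 0.89 (standard error 1.22) for Eno1 and 0.97 (standard error 1.21) for Pkm, with ranges over all alternatives of 0.18 to 2.64 and 0.22 to 2.58. For Pkm it was 0.23 without HADA replicate 4 and 1.99 without control replicate 1, and for Eno1 the lowest and highest with a library left out were 0.48 (control replicate 2) and 1.59 (control replicate 1). Pgk1 and Pgam1, the kinase and the mutase between Gapdh and enolase, had log2 fold changes of 0.34 and 1.67, with a smallest adjusted p of 0.450 in edgeR.

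Lactate dehydrogenase turns pyruvate into lactate and restores NAD+. Ldha (ENSMUSG00000063229, GRCm39 chr7:46490899-46505051, plus strand), its A subunit and a long-known target of hypoxia-inducible factors, was at 294, 2.19, 291 and 766 CPM in control replicates 1 to 4. It was at 290.2, 149, 354 and 445 CPM in HADA replicates 1 to 4. The highest value was in control replicate 4 and the lowest in control replicate 2. Control replicates 1, 3 and 4 lay level with or above HADA replicate 1 and above HADA replicate 2, and control replicates 1 and 3 below HADA replicates 3 and 4. The log2 fold change was -0.13 with a standard error of 1.08. Its sign was not stable: it was 1.26 by limma on log2(CPM + 1), and 0.71 without control replicate 4. Slc16a1 encodes MCT1, a carrier of lactate across the plasma membrane. It was at 48.5, 4.20, 12.8 and 27.8 CPM in the controls and at 17.6, 6.62, 1.65 and 112 CPM in HADA. HADA replicate 4 stood far above the other 3, and without it the log2 fold change of 0.57 became -1.35. Ldhb and Slc16a3 (MCT4, a lactate exporter) had log2 fold changes of 2.26 and 1.39, and the smallest adjusted p was 0.224 by edgeR. Slc16a3 was called higher only in fits without control replicate 1, where it had been at 13.7 CPM.

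The TCA cycle and the entry of pyruvate hold 10 members, with a median log2 fold change of 1.15. Mdh1 (ENSMUSG00000020321, GRCm39 chr11:21506692-21522367, minus strand) encodes the cytosolic malate dehydrogenase, which carries reducing equivalents toward mitochondria. It was at 175, 5.07, 25.1 and 129.7 CPM in control replicates 1 to 4 and at 227, 156, 553 and 811 CPM in HADA replicates 1 to 4. A single overlap, of control replicate 1 with HADA replicate 2, kept the groups from separating in CPM. Against background, control replicate 1 was at 230 times and HADA replicates 1 to 4 were at 68.9, 53.5, 205 and 431 times. The log2 fold change was 2.39 with a standard error of 1.04 and a range of 1.62 to 3.22 over all alternatives. The adjusted p was 0.173 by edgeR and 0.0373 by DESeq2, with a range of 0.00751 to 0.923 over all alternatives. Idh2, the mitochondrial isocitrate dehydrogenase that makes NADPH, was at 22.4, 2.16, 1.47 and 148 CPM in the controls and at 781, 191, 154 and 21.2 CPM in HADA. Its log2 fold change of 2.72 (standard error 1.44) was above that of the other 33 members, and it was 1.44 without HADA replicate 1 and 5.15 without control replicate 4, the ends of its range over all alternatives. HADA replicate 4, which was the highest HADA library for most members, was the lowest HADA library for Idh2.

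The remaining 8 members of this step were scattered to different degrees between libraries of the same group. They were Pdha1 (pyruvate dehydrogenase), Cs (citrate synthase), Idh1, Idh3a, Ogdh (oxoglutarate dehydrogenase), Sucla2 (succinyl-CoA ligase), Fh1 (fumarase) and Mdh2. Their log2 fold changes ran from -0.86 for Idh3a to 1.73 for Ogdh, 5 of 8 above 0, and the smallest adjusted p was 0.236 by edgeR. Mdh2, the mitochondrial malate dehydrogenase, was at 319 CPM in control replicate 1 and at 1.10 CPM in HADA replicate 1, and between 3.13 and 463 CPM elsewhere. Ogdh was between 125 and 225 CPM in HADA, and its only overlap in CPM was of control replicate 1 with HADA replicate 2. Pdha1 and Ogdh were called higher only in fits without control replicate 1, in which they were at 30.4 and 158 CPM.

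The pentose phosphate pathway held the other member without overlap. Taldo1 (ENSMUSG00000025503, GRCm39 chr7:140972112-140982881, plus strand) encodes transaldolase, which links pentose phosphates back to glycolysis. It was at 158, 1.16, 39.6 and 86.2 CPM in control replicates 1 to 4 and at 169.5, 255, 344 and 739 CPM in HADA replicates 1 to 4. In CPM the groups were separated by the narrow step from control replicate 1 to HADA replicate 1. The control values were 297, 0.318, 12.7 and 39.3 times background and the HADA values 73.7, 126, 183 and 563 times. On that scale control replicate 1 lay above HADA replicates 1, 2 and 3, and control replicate 2 was under background. The log2 fold change was 2.41 with a standard error of 1.10, and the adjusted p was 0.186 by edgeR and 0.0457 by DESeq2, with a range of 0.00784 to 0.924 over all alternatives. Tkt, the transketolase of the same branch, was at 111, 3.07, 1.75 and 27.0 CPM in the controls and at 14.7, 31.7, 38.4 and 75.9 CPM in HADA. It overlapped fully, with its highest value in control replicate 1, and its log2 fold change was 0.19 with a standard error of 1.17. Pgd, the dehydrogenase that gives the second NADPH of the branch, had a log2 fold change of -0.45. G6pdx, which gives the first, is listed at 0 in every library, and other gene spans cover 100% of its own.

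**Figure D4:**
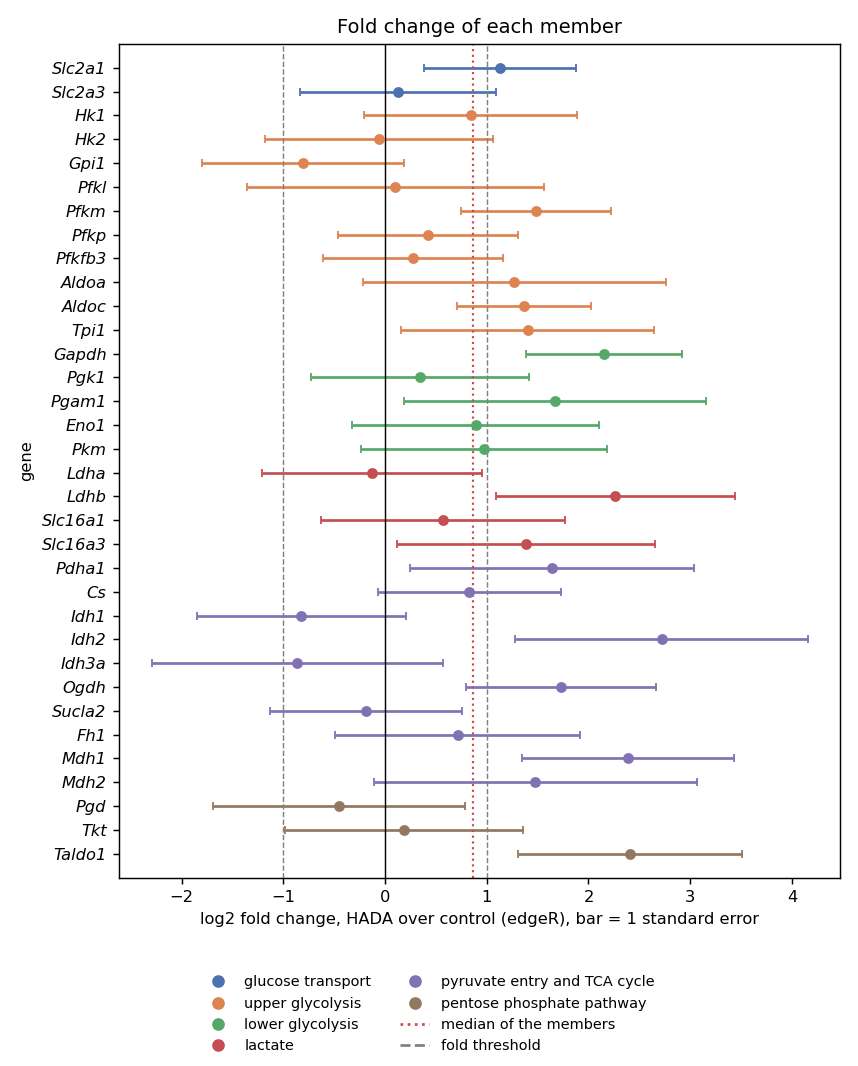
Log2 fold change of each member, HADA over control, with 1 standard error, coloured by step. Dotted line, median of the members (0.87); dashed lines, fold threshold. The highest value is that of Idh2 (2.72), the lowest that of Idh3a (-0.86), and 7 members lie below 0.

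The letters before the start of each gene were read from the genome. In the 250 bases before the start of the canonical transcript, ACGTG was searched on both strands, where CACGTG counts once on each strand as overlapping matches. At least 1 match was found for 10 of 34 members, 29.4%, against 17.0% of the promoters of 21770 protein-coding genes. The median log2 fold change was 0.92 for the members with a match and 0.87 for the 24 without. With GCGTG searched too, 22 of 34 members had a match, 64.7%, against 41.3% of all promoters, and the medians were 1.201 with and 0.49 without; this wider search was added after the values were seen, and the difference was not tested. Of ACGTG, Ldha had 5 matches, the most of any member, Mdh1 had 1, and Gapdh and Taldo1 had 0, while with GCGTG included the matches were 6, 1, 2 and 1. These 4 are shown because they are the member with the highest mean CPM per kilobase over the 8 libraries and the 3 members with an unadjusted p under 0.05. They are from GRCm39, 5′ to 3′ on the gene's strand, with the matched letters of ACGTG in capitals: Ldha at chr7:46495013-46495262 (plus), Mdh1 at chr11:21522212-21522461 (minus), Gapdh at chr6:125142737-125142986 (minus) and Taldo1 at chr7:140971826-140972075 (plus).
Ldha: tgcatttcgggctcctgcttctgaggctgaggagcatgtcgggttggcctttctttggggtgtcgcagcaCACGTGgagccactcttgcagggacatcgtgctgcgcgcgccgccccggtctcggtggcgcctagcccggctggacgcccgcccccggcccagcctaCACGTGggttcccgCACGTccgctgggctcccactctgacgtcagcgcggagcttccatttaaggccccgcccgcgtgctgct
Mdh1: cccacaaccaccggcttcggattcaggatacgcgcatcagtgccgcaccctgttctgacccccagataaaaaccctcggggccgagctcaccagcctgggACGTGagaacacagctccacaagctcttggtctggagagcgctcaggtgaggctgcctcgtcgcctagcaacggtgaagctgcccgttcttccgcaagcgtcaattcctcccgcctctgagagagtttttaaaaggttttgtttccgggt
Gapdh: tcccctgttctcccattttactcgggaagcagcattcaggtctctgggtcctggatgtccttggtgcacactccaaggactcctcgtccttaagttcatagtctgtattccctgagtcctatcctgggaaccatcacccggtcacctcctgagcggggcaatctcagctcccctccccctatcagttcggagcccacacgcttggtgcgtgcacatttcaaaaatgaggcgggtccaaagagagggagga
Taldo1: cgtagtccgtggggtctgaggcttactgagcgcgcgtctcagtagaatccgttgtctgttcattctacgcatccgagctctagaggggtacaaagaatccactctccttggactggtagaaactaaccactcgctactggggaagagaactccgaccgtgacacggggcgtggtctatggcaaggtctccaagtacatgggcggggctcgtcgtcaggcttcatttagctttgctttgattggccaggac

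Outside the 34 members, 66 other genes of the same steps were counted from the same fit. Of these, 56 could be tested, 2 were higher in HADA by the thresholds and 0 were lower, against 1.65% and 0.477% of all genes. At an unadjusted p under 0.05 they were 7 and 5, against 12% and 14.7% of all genes. DESeq2 called 9 higher and 8 lower of 54 with an adjusted p, against 11.6% and 20.1% of all genes. By limma-trend on log2(CPM + 1) the calls were 3 and 0 of 56, against 3.7% and 0.346%, and by edgeR without control replicate 1 they were 15 and 6 of 56, against 15.5% and 19.7%. Their median log2 fold change was 1.19, and 39 were above 0. Aco1 (ENSMUSG00000028405, GRCm39 chr4:40143081-40198338, plus strand) encodes the cytosolic aconitase, which doubles as an iron-responsive RNA-binding protein. It was at 8.08, 10.8, 8.07 and 11.5 CPM in control replicates 1 to 4 and at 2414, 2279, 2008 and 1496 CPM in HADA replicates 1 to 4. All 4 HADA libraries were far above all 4 controls, and within each group the libraries were close together, which set Aco1 apart from the members. By edgeR it rose by 7.73 on the log2 scale (adjusted p = 0.00220, standard error 0.76), and it passed the thresholds with each library left out in turn, at adjusted p-values from 0.00168 to 0.0252. The control values were 2.97, 0.578, 0.505 and 1.02 times background and the HADA values 205, 219, 208 and 222 times. The size of the fold thus rests on a floor, and the log2 fold change ran from 6.89 to 14.31 over all alternatives. Of all 21 alternatives, the call of Aco1 was lost only without control replicate 2 after subtraction of the background (adjusted p 0.0695).

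Hk3, the hexokinase of myeloid cells, was the other. It was at 1.86, 1.28, 0.594 and 1.04 CPM in the controls and at 22.7, 4.77, 21.3 and 93.9 CPM in HADA. By edgeR it rose by 4.96 on the log2 scale (adjusted p = 0.0414, standard error 1.11), with a range of 3.43 to 11.80 over the 19 alternatives that tested it. The control values were 2.46, 0.247, 0.134 and 0.333 times background and the HADA values 6.92, 1.65, 7.94 and 50.1 times, so the size of this fold rests on a floor as well. The call was lost without control replicate 2, 3 or 4 (adjusted p 0.113, 0.156 and 0.122) and without HADA replicate 1, 3 or 4 (0.0850, 0.0657 and 0.0682). It was also lost with the replicate number as a block (0.114) and after subtraction of the background (0.481). The 10 myeloid markers summed to 1758, 54.5, 388 and 1181 CPM in the controls and to 926, 2547, 3504 and 884 CPM in HADA. The most abundant was Lyz2, at 1524, 28.1, 272 and 996 CPM and at 682, 2083, 3195 and 690.4 CPM, Itgam was at 0 in 7 of 8 libraries with 99.9% of its span covered, and 7 of 9 tested were above 0. By edgeR 0 were called, against 1.65% of all genes higher. At an unadjusted p under 0.05, 1 of the 9 was higher, against 12% of all genes. Without control replicate 1, 2 were called higher, against 15.5% of all genes. DESeq2 called 1 higher (Fcgr3), against 11.6% of all genes, and limma 0, against 3.7%. Their part in the value of Hk3 was not tested.

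**Figure D5:**
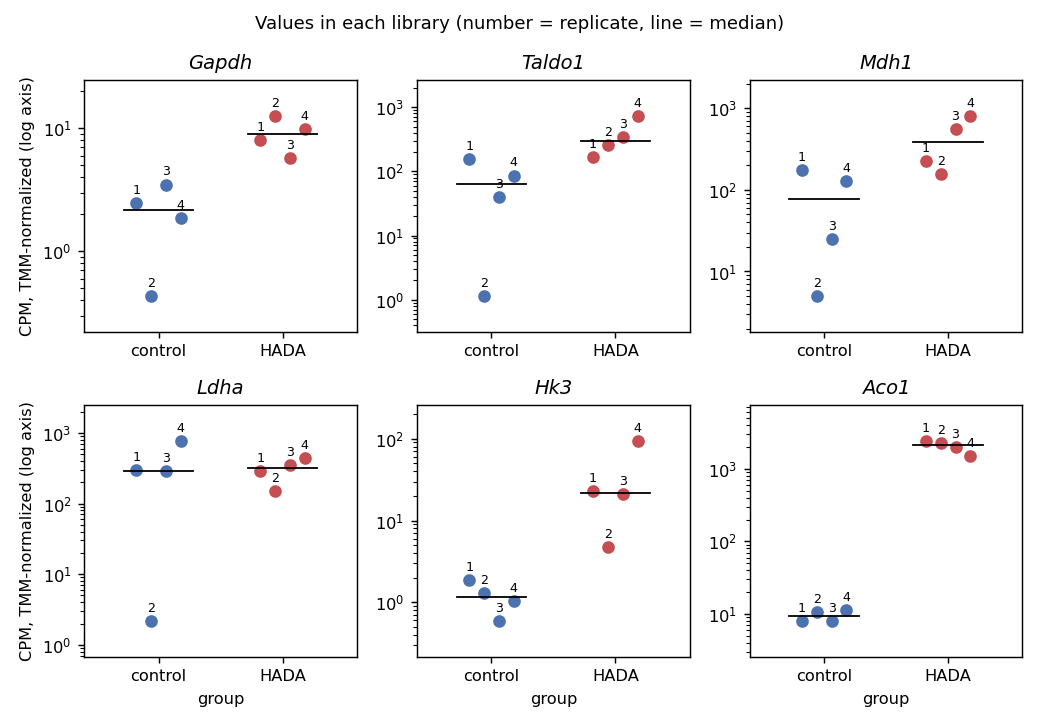
Levels of 6 genes in each library, in CPM on a log axis; numbers are replicates and lines are medians. Aco1 and Hk3 passed the thresholds of edgeR. Gapdh and Taldo1 do not overlap between groups, and Mdh1 and Ldha overlap. With all libraries, Gapdh, Taldo1 and Mdh1 passed by DESeq2 but not by edgeR, and Ldha passed by neither.

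Markers of cell types differed between the libraries as well. The most abundant marker of each list is given for the mean over the 8 libraries, and others were higher in single libraries. Of the Treg markers, Foxp3 and Tnfrsf18 are listed at 0 in all 8 libraries, and other gene spans cover 100% of both, so the label could not be checked on Foxp3. Il2ra, which encodes CD25, was at 178, 10.5, 7.23 and 59.5 CPM in the controls and at 309, 163, 287 and 748 CPM in HADA. Summed, the 6 Treg markers were at 648, 227, 319 and 373 CPM in the controls and at 1246, 734, 2021 and 2618 CPM in HADA, with Ikzf2 the highest in the mean. The 6 T cell markers, with Cd3g the highest in the mean, summed to 1646, 76.3, 669 and 1681 CPM in the controls and to 2431, 1767, 4067 and 4673 CPM in HADA. In both lists all tested markers had log2 fold changes above 0 (4 of 4 and 6 of 6), with medians of 2.69 and 1.72 beside the 0.87 of the members. By edgeR 0 of either list were called, against 1.65% of all genes higher and 0.477% lower. At an unadjusted p under 0.05, 2 and 2 were higher, against 12% of all genes. Without control replicate 1, 3 and 2 were called higher, against 15.5% of all genes. DESeq2 called Il2ra, Ctla4, Cd3d and Cd3g higher, against 11.6% of all genes, and limma called Tnfrsf4 and Cd3d higher, against 3.7%. Their part in the members' values was not tested.

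Genes of other blood cells were present as well. The 7 B cell markers, with Ighm the highest in the mean, summed to 5207, 214, 1290 and 3224 CPM in the controls and to 2194, 2119, 5752 and 6640 CPM in HADA. Among the controls their sum was lowest in control replicate 2, as were 18 of the 34 members and the sum of every other marker list. Of those tested, 6 of 6 were above 0 with a median log2 fold change of 0.84, Ms4a1 being listed at 0 with its span covered. At an unadjusted p under 0.05, 0 were higher and 0 lower, against 12% and 14.7% of all genes. By edgeR, DESeq2 or limma 0 were called, against 1.65%, 11.6% and 3.7% of all genes higher. The 8 platelet markers, with Ppbp the highest in the mean, summed to 474, 43.7, 58.2 and 318 CPM in the controls and to 1733, 278, 1264 and 1377 CPM in HADA, with 6 of 6 tested above 0 and a median of 3.21. By edgeR 0 were called, against 1.65% of all genes higher. At an unadjusted p under 0.05, 4 were higher, against 12% of all genes. Without control replicate 1, 2 were called higher, against 15.5% of all genes. DESeq2 called 4 higher (Pf4, Gp9, Gp5 and Treml1), against 11.6% of all genes, and limma 1 (Gp9), against 3.7%. The 8 markers of CD8+ T and NK cells, with Nkg7 the highest in the mean through HADA replicates 2 to 4, summed to 112, 8.17, 92.0 and 162 CPM in the controls and to 136, 141, 184 and 626 CPM in HADA, with 4 of 7 tested above 0 and 3 below (Prf1, Gzmb and Klrd1). Of these 7, Cd8b1 was higher by the thresholds of edgeR (0.621, 2.35, 1.26 and 1.85 CPM against 29.0, 14.2, 45.7 and 109 CPM) and 0 were lower, against 1.65% and 0.477% of all genes. At an unadjusted p under 0.05 they were 3 and 0, against 12% and 14.7% of all genes. Without control replicate 1 they were 2 and 0, against 15.5% and 19.7%. By DESeq2 they were 3 (Cd8a, Cd8b1 and Nkg7) and 1 (Prf1), against 11.6% and 20.1%. By limma they were 1 and 0, against 3.7% and 0.346%. What these cells add to the members' values was not tested.

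Red cell transcripts ran the other way. Of 9 erythroid markers, 8 were found, Alas2 was listed at 0 with its span covered, and the 7 tested all had log2 fold changes below 0, with a median of -3.45. By edgeR 0 were called, against 0.477% of all genes lower. At an unadjusted p under 0.05, 7 were lower, against 14.7% of all genes. Without control replicate 1, 2 were called lower, against 19.7% of all genes. DESeq2 called all 7 lower, against 20.1% of all genes, and limma 0, against 0.346%. Summed, they were at 28397, 1033, 4146 and 7310 CPM in control replicates 1 to 4 and at 2809, 1001, 147 and 174 CPM in HADA replicates 1 to 4, with Hba-a1 the highest in the mean. Bpgm, which makes the 2,3-bisphosphoglycerate of red cells, was at 531, 7.70, 191 and 188 CPM in the controls and at 2.13, 1.76, 53.1 and 30.8 CPM in HADA. Both were highest in control replicate 1. The log2 fold change of Bpgm was -3.38 with an adjusted p of 0.149 by edgeR. It was called lower, as was Pdp2, a phosphatase that activates pyruvate dehydrogenase, where every library had to hold at least 10 counts, where depth was made equal, and by DESeq2. Pdp2 was at 52.2, 356, 508 and 1175 CPM in the controls and at 0.473, 49.0, 30.6 and 149.7 CPM in HADA, with a log2 fold change of -3.19 and an adjusted p of 0.158 by edgeR. Unlike Bpgm, Pdp2 was lowest of its group in control replicate 1 and HADA replicate 1, where the erythroid sums were highest of theirs. The part of red cell RNA in the values of Bpgm and Pdp2 was not tested.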

How the data were processed

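Per the submitters' processing notes, the authors used FastQC for quality, Trimmomatic for trimming, STAR for alignment to the GRCm39 build and featureCounts for counting, and the deposited values are raw counts per gene. Versions and the strand and multi-mapping settings are not given in the sources used here. The length in the table equals the gene span for 100% of the 56980 genes, and all 1077 protein-coding genes whose span other spans fully cover are listed at 0. Names came from GENCODE vM39 for 56236 identifiers (98.7%), 60.6% of them with the same coordinates. Coordinates of genes are those of the table. No 2 libraries had identical counts.

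Groups and replicate numbers came from the labels. HADA was compared with control in edgeR 4.0.16 (R 4.3.3; TMM, filterByExpr, quasi-likelihood test, no covariates), fitted on all genes and tested on simulated data. The simulated counts spread less than these libraries, whose common dispersion was 0.805, and their background did not differ between libraries. That check therefore cannot show how many true differences would be found here. DESeq2 1.42.0 (on the genes that filterByExpr kept) and limma 3.58.1 were alternatives, with others on filters, depth, background and left-out libraries. Background was the count per base of span on receptor genes that no other span overlaps. The members, gene lists and markers were chosen with earlier results of these data known. Values in every library were given for members past the thresholds, without overlap of the groups in CPM, or first or second in mean CPM within their step, 13 in all, and the other 21 by range and count, with single values of some of them (such as Mdh2) picked after they were seen. Of the other pathway genes, those past the thresholds were named; Bpgm, Pdp2 and G6pdx were named after their values were seen. Copies were searched with blastn 2.17.0 over at least 100 bases.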

Additional observations from a re-analysis of the deposited data

Results flagged for a closer look

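In 2 of the 36 groups of 4 values looked at, a single library lay far from the other 3. Slc16a1 was at 111.9 CPM in HADA replicate 4, and Idh2 was at 148.0 CPM in control replicate 4. Chance marks about 1 in 20 groups in this way, and the reason for these values was not tested.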

How the results depend on the processing

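Against 363 genes higher in HADA, DESeq2 called 2457, limma on log2(CPM + 1) 814, a minimum of 10 counts in every library left 93, equal depth 126 and subtraction of the background per span 103 (93 on span free of other genes). Lower genes, 105 in the main comparison, were 4247 by DESeq2, 30 by limma on log2(CPM + 0.1) and 54 with no filter. Leaving out each library gave between 28 and 3716 higher and between 1 and 4732 lower genes. The members called higher, 0 of 34, were 3 by DESeq2 and 0 to 4 with a library left out; 0 were lower under every alternative. Of alternatives chosen after seeing the data, DESeq2 without control replicate 1 called 6281 of 22674 genes higher, 5988 lower and 12 of 31 members higher, a larger share of the members than of all genes. With edgeR after subtraction, the same omission gave 2113 and 450 genes and 0 members, and omission of control replicate 2 gave 32 and 1.

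With the replicate number as a block (replicate block), 158 genes were higher and 11 lower, and 0 members. Deviations of same-numbered libraries correlated at -0.21, 0.25, -0.08 and -0.00316, so the numbers were not taken as pairs.

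Signs turned for 5 of the 13 members with values in every library. Slc2a3 was -0.0560 with DESeq2 size factors, -0.0554 by DESeq2, -0.54 at 10 counts, -0.59 at equal depth, -0.35 after either subtraction, -0.0385 with the replicate block, -0.70 without control replicate 2 after subtraction, and -0.27 to 0.68 with a library left out. Gpi1 was 0.00954 and 0.0654 by limma with pseudocounts of 1 and 0.1. Ldha was 1.26 and 1.38 by limma, 0.0812 with no filter, 0.80 with the block, and -0.54 to 0.71 with a library left out. Slc16a1 was -0.32 and -0.42 by limma, -0.0364 at 10 counts, -0.0215 at equal depth, -0.42 with the block, -0.30 without control replicate 2 after subtraction, and -1.35 to 1.32 with a library left out. Tkt was -0.12 at 10 counts, -0.49 at equal depth, -0.15 and -0.16 after subtraction, -0.56 without control replicate 2 after subtraction, and -0.27 to 2.03 with a library left out. The cause was not tested. DESeq2 size factors moved the median of all genes from 0.01 to -0.19, so fold changes are relative to the scaling. Counts under 10 occurred for 4 members in control replicate 1, whose depth limits them most.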

Other observations

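The NADP-dependent isocitrate dehydrogenases showed no fixed balance between libraries, given here as shares per kilobase of canonical transcript. The mitochondrial Idh2 made up 32.8 and 74.4 percent of the 2 enzymes in control replicates 1 and 4 and 99.0, 97.1, 79.4 and 67.4 percent in HADA replicates 1 to 4. Control replicates 2 and 3 are left out, as Idh2 was under background there. In HADA replicates 1 and 2 Idh1 was at 2.44 and 2.08 times background, under the limit of 3 times, so the shares there rest on an Idh1 near background. The groups overlapped, and no test was made of this share.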
